A study of Mus musculus with 24 samples.

Results

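Prl2c3, Prl2c4 and Prl2c5 encode proliferins. They were followed in mouse small intestinal organoids, in which all their probes gave more signal after 6 Gy of gamma radiation than without it at 24, 48 and 96 h. Every probe carrying one of these 3 symbols in the deposited array table was taken. This gave 3 probes, 1 for each symbol, of 25697 probes and 18138 symbols in all. The genes were chosen because their measured signal was raised at every time, so the irradiation effects on them are a description and carry no p-value.

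The irradiated groups were organoids exposed to 6 Gy 3 days after reseeding and harvested 24, 48 or 96 h later, and each time had control organoids that received no radiation. There were 6 groups of 4 samples, and each of the 24 samples was measured on 1 Illumina BeadChip array. The organoids came from C57BL/6 mice and grew in medium with EGF at 50 ng/ml, Noggin, R-spondin and N-acetyl cysteine, which all groups shared. The labels give neither the number of mice nor whether samples of a group were separate cultures, so the spread between them may be technical. All arrays of a time were on 1 chip, with controls at positions 1 to 4 and irradiated samples at positions 5 to 8. Position and irradiation cannot be told apart, and neither can chip and time.

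Proliferins are secreted glycoproteins of the prolactin and growth hormone family, which has expanded in rodents into a cluster of placental genes. In the mouse they are best known as products of trophoblast giant cells, and they were first found as transcripts that serum and growth factors induce in cultured fibroblasts. They bind the mannose 6-phosphate receptor encoded by Igf2r, and they promote blood vessel growth in the placenta. AP-1, the dimeric factor of Fos and Jun proteins, and the glucocorticoid receptor are known regulators of a proliferin gene.

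The names on the array are older than the present annotation. In the RefSeq annotation of GRCm38.p6, Prl2c3 and Prl2c5 are current genes on chromosome 13, and Prl2c4 is listed as an older name of Prl2c3. The 3 probes therefore correspond to 2 current genes. The closely related Prl2c2 has no probe under its own symbol, and the probe sequences are not given in the table, so a probe may read more than 1 of these near-identical transcripts. Values below are given by probe and keep the array's names.

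The promoters of the 2 current genes are shown because they are almost the same sequence. Whether this likeness bears on the signal of the probes was not tested. Each stretch runs from 250 bases before the annotated start to 50 bases after it. Prl2c3 lies at chr13:12800030-12800329 on the minus strand and Prl2c5 at chr13:13182466-13182765 on the plus strand (RefSeq, GRCm38.p6). Capitals mark bases that differ between them in a global alignment.
Prl2c3: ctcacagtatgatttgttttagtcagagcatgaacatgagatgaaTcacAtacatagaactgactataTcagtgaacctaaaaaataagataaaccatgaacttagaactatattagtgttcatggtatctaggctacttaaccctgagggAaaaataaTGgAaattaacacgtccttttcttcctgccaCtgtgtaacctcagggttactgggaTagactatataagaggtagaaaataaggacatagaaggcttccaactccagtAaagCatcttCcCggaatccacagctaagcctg
Prl2c5: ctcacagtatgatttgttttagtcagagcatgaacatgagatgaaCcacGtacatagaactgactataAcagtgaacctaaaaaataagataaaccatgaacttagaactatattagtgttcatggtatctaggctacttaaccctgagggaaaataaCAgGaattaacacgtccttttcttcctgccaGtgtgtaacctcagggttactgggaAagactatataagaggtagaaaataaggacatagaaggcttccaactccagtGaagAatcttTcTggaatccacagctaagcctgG

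Of 299 aligned positions 287 are identical (96.0%), and the 12 substitutions lie 8 before the start and 4 after it. Among the family promoters in the RefSeq table, which holds none under the symbol Prl2c2, only 1 other is this close. That of Prl7d1, which encodes proliferin-related protein, is 95.0% identical to the Prl2c3 promoter, while those of 19 further family genes are 53.0% to 66.7% identical to the 2 Prl2c promoters, all counted over aligned positions with gaps left out. The Prl7d1 probe was not above background on any of the 24 arrays.

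One AP-1 letter match separates these promoters. The letters TGANTCA, searched on both strands, occur in the Prl2c3 promoter with their first base 209 bases before the start and occur in 7.81% of all 32851 promoters in the table. Counted from 1 at the 5′ end of the printed Prl2c3 stretch, the substitution T46C removes the match in Prl2c5, and Prl7d1 has no match either. The stretch around the 7 bases, in capitals, reads as follows.
Prl2c3: catgagaTGAATCAcatacat
Prl2c5: catgagaTGAACCAcgtacat
Prl7d1: catgagaTGAACCAtgtacat

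The GATA letters AGATAA (11.2% of promoters) occur once on the plus strand of each Prl2c promoter, 163 bases before the start. A TATA-like run searched for after the promoters had been read, TATATAA, occurs in each as well and in 3.24% of all promoters. The TEAD letters, GGAATG, have no match in either and occur in 14.7% of all promoters. The same is true of AGAACA, taken as a glucocorticoid receptor binding unit and present in 19.0% of promoters. The E-box letters, CANNTG, occur in 72.3% of promoters and in neither of these. The standard TATA box letters, TATAAA, are found in 13.6% of promoters and again in neither. These matches describe letters in the window and are not shown to be bound.

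Levels are log2 intensities after background correction (offset 16) and quantile normalization across the 24 arrays. A probe counted as detected on an array where its deposited detection p-value, its rank among that array's negative control beads, was under 0.05. All 3 Prl2c probes were detected on all 12 irradiated arrays, but on only 9, 7 and 5 of the 12 control arrays (Prl2c3, Prl2c4 and Prl2c5). All passed the filter for testing, which asked for detection on at least 4 arrays and which each would have met in the controls alone.

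The Prl2c3 probe was higher in each irradiated array than in any control of its time. At 24 h it gave 8.03, 8.12, 7.69 and 8.06 log2 units in irradiated organoids, against 6.26, 6.09, 6.08 and 6.61 in controls. At 48 h it gave 7.66, 7.64, 7.82 and 7.84 in irradiated organoids, against 5.06, 5.69, 5.74 and 5.32 in controls. At 96 h it gave 6.59, 6.42, 6.25 and 6.88 in irradiated organoids, against 5.04, 4.83, 5.31 and 4.84 in controls. The groups did not overlap at any time, and at 96 h only 1 of the 4 controls was above background. The log2 differences, irradiated minus control, were 1.71, 2.29 and 1.53 at 24, 48 and 96 h (SE 0.16 each), which is 3.28-fold and 4.88-fold at 24 and 48 h. At 96 h the difference corresponds to 2.89-fold, but the control mean of 5.0 lay below the lowest signals detected on those arrays (mean 5.26), so this fold is not well measured.

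The Prl2c4 probe, whose name is now part of Prl2c3, had the same pattern. At 24 h it gave 7.38, 7.34, 7.08 and 7.25 log2 units in irradiated organoids, against 6.01, 5.82, 5.64 and 6.05 in controls. At 48 h it gave 7.34, 7.22, 7.15 and 7.29 in irradiated organoids, against 5.31, 5.16, 4.97 and 5.54 in controls. At 96 h it gave 6.76, 6.38, 5.96 and 6.57 in irradiated organoids, against 4.74, 4.72, 4.79 and 4.77 in controls. Again no irradiated value fell among the controls of its time, and none of the 96 h controls was above background. The log2 differences were 1.38 and 2.0 at 24 and 48 h (SE 0.14 each), or 2.60-fold and 4.01-fold. At 96 h the level was at least 2.23-fold higher in irradiated organoids, where the irradiated mean is set against the lowest signals detected on the control arrays (fitted difference 1.66, SE 0.14). This bound holds only for the processing used here. The log2 difference was 0.81 in the authors' deposited processed values, which keep the background.

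The Prl2c5 probe gave 7.41, 6.87, 7.27 and 7.12 log2 units in irradiated organoids at 24 h, against 5.75, 5.25, 5.71 and 6.12 in controls. At 48 h it gave 6.96, 7.43, 7.26 and 7.61 in irradiated organoids, against 5.09, 5.47, 5.03 and 4.87 in controls. At 96 h it gave 6.26, 6.84, 6.76 and 7.13 in irradiated organoids, against 4.55, 4.66, 4.73 and 4.91 in controls. These groups were separated at each time too, and no 96 h control was above background. The log2 differences were 1.46 and 2.20 at 24 and 48 h (SE 0.19 each), or 2.75-fold and 4.60-fold. At 96 h the level was at least 2.80-fold higher in irradiated organoids (fitted difference 2.03, SE 0.19). Again this bound holds only for the processing used here, and the log2 difference was 1.05 in the authors' deposited processed values.

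**Figure D1:**
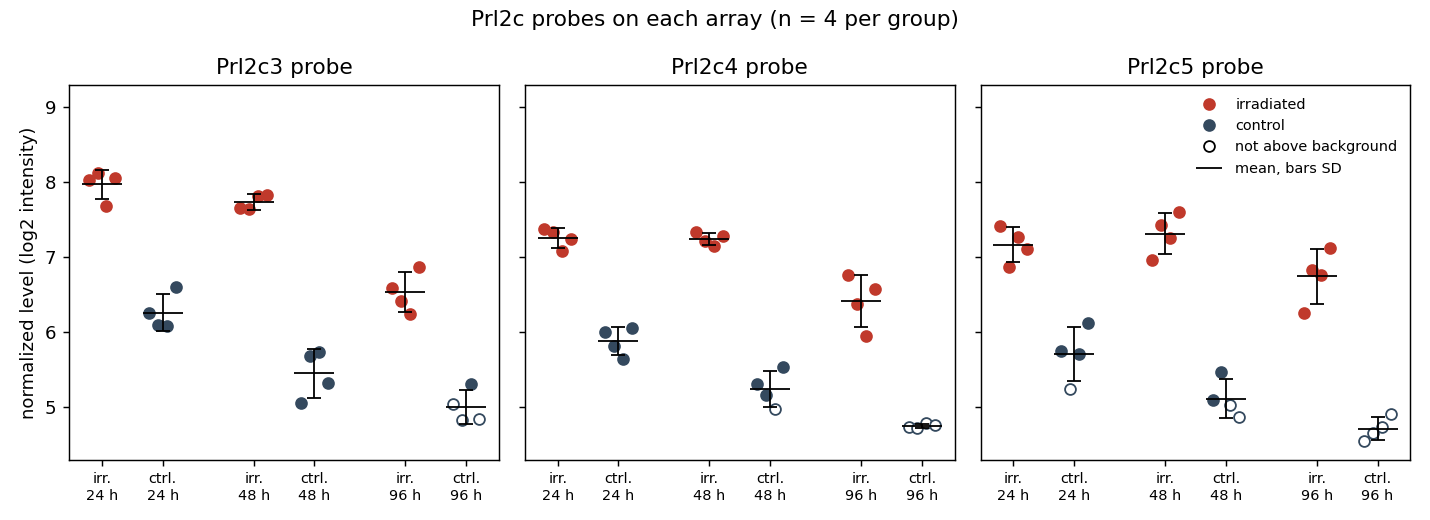
Normalized level (log2 intensity) of the 3 Prl2c probes on each of the 24 arrays, irradiated in red and controls in dark blue. Open circles are arrays on which the probe was not above background, and bars are the mean with SD of 4 arrays. For each probe every irradiated array lies above every control array of its time, and open circles occur only among controls.

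All 4 irradiated arrays thus stood above all 4 controls for 3 of 3 Prl2c probes at each time. The same held for 11.2% of all 15056 tested probes at 24 h, 9.05% at 48 h and 2.85% at 96 h, and for 1.02% at all 3 times. A rise called in limma at an adjusted p under 0.05 was found for 9.61%, 6.28% and 1.45% of the tested probes at 24, 48 and 96 h and for 0.897% at all 3 times. Since the genes were picked for this pattern, the counts for the members are not set against those shares. Over all tested probes the median log2 difference was -0.07, -0.03 and 0.004 at 24, 48 and 96 h.

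The direction did not rest on the normalization, but the size did. In the signals as deposited, before any correction, the Prl2c3 probe had 219 to 335 intensity units in irradiated organoids at 24 h and 122 to 185 in controls. It had 244 to 377 in irradiated organoids and 94.0 to 101 in controls at 48 h, and 143 to 251 in irradiated organoids and 85.4 to 122 in controls at 96 h. The only overlap of uncorrected signals among the 9 pairs of groups was that of Prl2c5 at 24 h, with 129 to 242 in irradiated organoids and 97.8 to 148 in controls. The mean log2 difference over the 3 probes was 1.52, 2.16 and 1.74 at 24, 48 and 96 h. In the authors' deposited processed values, which keep the background, it was 0.92, 1.20 and 0.86, and each irradiated array again lay above each control of its time on all 3 probes.

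Irradiated arrays detected fewer probes on average at each time and varied more. The mean was 11469 in irradiated organoids and 13012 in controls at 24 h, 13660 in irradiated organoids and 14071 in controls at 48 h, and 12118 in irradiated organoids and 12992 in controls at 96 h. The ranges were 9738 to 12941 detected probes in irradiated organoids and 12535 to 13551 in controls at 24 h, 12890 to 14751 in irradiated organoids and 14014 to 14120 in controls at 48 h, and 10971 to 13231 in irradiated organoids and 11727 to 13831 in controls at 96 h. Without the 5 arrays with the fewest, which are irradiated replicates 3 and 4 at 24 h, irradiated replicates 3 and 4 at 96 h and control replicate 4 at 96 h, the mean difference over the 3 probes was 1.58 at 24 h and 1.72 at 96 h.

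**Figure D2:**
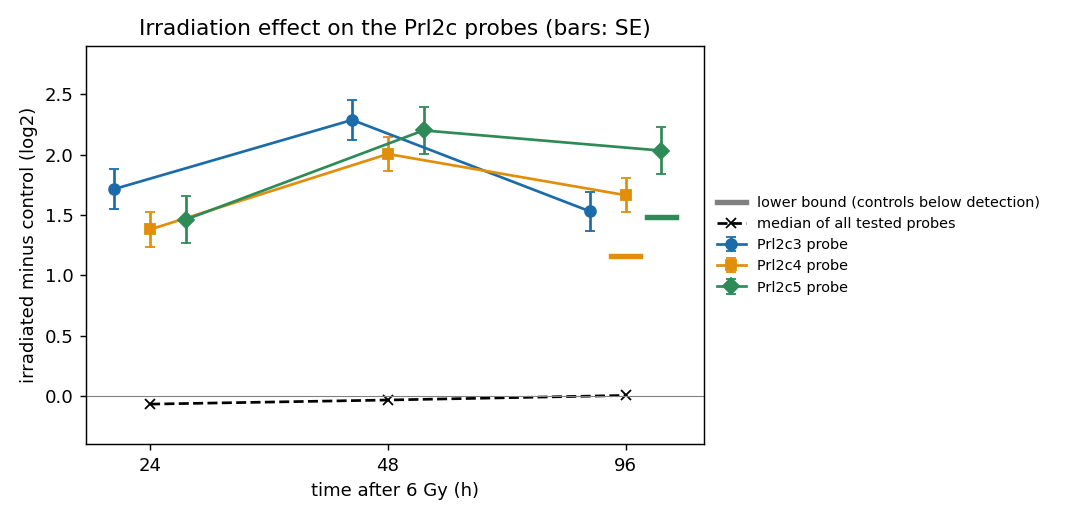
Irradiated minus control (log2) for each Prl2c probe at 24, 48 and 96 h, with SE as bars; thick dashes give the lower bound where no control array was above background, and crosses the median of all 15056 tested probes. The 3 probes lie between 1.38 and 2.29 while the median of all probes stays within 0.07 of 0. The lower bounds hold only for the processing used here.

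The levels themselves were ordered alike in both conditions for the Prl2c3 probe. Its mean was 7.98 ± 0.19, 7.74 ± 0.10 and 6.53 ± 0.27 log2 units in irradiated organoids at 24, 48 and 96 h, and 6.26 ± 0.25, 5.45 ± 0.32 and 5.0 ± 0.22 in controls (SD, n = 4 each). The Prl2c4 probe averaged 7.26 ± 0.13, 7.25 ± 0.08 and 6.42 ± 0.34 in irradiated organoids and 5.88 ± 0.19, 5.24 ± 0.24 and 4.75 ± 0.03 in controls. The Prl2c5 probe averaged 7.17 ± 0.23, 7.32 ± 0.27 and 6.75 ± 0.36 in irradiated organoids and 5.71 ± 0.36, 5.11 ± 0.26 and 4.71 ± 0.15 in controls. For Prl2c4 and Prl2c5 the irradiated levels at 24 and 48 h differed by less than their SD. Controls had their highest mean at 24 h on all 3 probes. Levels at different times come from different chips and were not tested against each other.

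Whether the size of the irradiation effect differed between times is a comparison of differences within chips, and the genes were chosen on the sign of the effect, not on this contrast. The fitted effect was larger at 48 h than at 24 h by 0.57 (Prl2c3, 95% interval 0.09 to 1.05), 0.63 (Prl2c4, 0.21 to 1.05) and 0.74 (Prl2c5, 0.18 to 1.30). None of these passed in limma after adjustment over all 15056 probes (adjusted p = 0.358, 0.201 and 0.295). Across all probes 0.206% had an irradiated minus control difference that passed as more positive at 48 h than at 24 h, and 0.551% as more negative. Such shares go by sign, so a probe that fell less at the later time counts as more positive. The 48 h effect on Prl2c5 passed as larger with median scaling (1.37, adjusted p = 0.0415), and that on Prl2c4 with quantile normalization within each chip (0.89, adjusted p = 0.0397).

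Between 48 and 96 h the effect changed by -0.76 on the Prl2c3 probe (interval -1.24 to -0.28, limma adjusted p = 0.0895), -0.34 on Prl2c4 (-0.76 to 0.08, adjusted p = 0.466) and -0.17 on Prl2c5 (-0.73 to 0.39, adjusted p = 0.844). The Prl2c3 value passed with the authors' deposited processed values (-0.60, adjusted p = 0.0116), with no background correction (-0.59, adjusted p = 0.0118), with an offset of 50 (-0.72, adjusted p = 0.0109), with quantile normalization within each chip (-0.99, adjusted p = 0.025) and without irradiated 96 h replicate 4 (-0.87, adjusted p = 0.0493). In all, 2.15% of probes had a difference that passed as more negative at 96 h than at 48 h, and 0.565% as more positive, again by sign. Between 24 and 96 h the changes were -0.19 (Prl2c3, -0.67 to 0.30), 0.28 (Prl2c4, -0.14 to 0.70) and 0.57 (Prl2c5, 0.01 to 1.13), with limma adjusted p = 0.683, 0.422 and 0.196. Over all probes 4.4% had a difference that passed as more positive at 96 h than at 24 h, and 5.55% as more negative. Thus 0 of the 9 differences between times passed after adjustment, and 5 had an unadjusted limma p under 0.05. At 96 h the effects on Prl2c4 and Prl2c5 are themselves only bounded, since none of their controls was above background, and that on Prl2c3 rests on 1 control above background of 4. Every comparison with 96 h above carries this limit.

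The 3 probes were also compared with each other, over 9 comparisons in exact two-sided permutation tests of the within-array difference between a pair of probes (70 splits of 4 against 4, smallest possible p = 0.0286). These comparisons were added after the values had been seen. The Prl2c4 effect minus the Prl2c3 effect was -0.34 at 24 h (exact p = 0.0286, adjusted p = 0.257). The Prl2c5 effect minus the Prl2c3 effect was 0.50 at 96 h (exact p = 0.0857, adjusted p = 0.386), where of the controls of both probes only 1 array of Prl2c3 was above background. Differences in the other 7 comparisons ran from -0.28 to 0.37, with exact p from 0.257 to 0.714. No pair differed after adjustment, and with 4 arrays a group none could have passed over 9 comparisons unless several reached the smallest p.

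Within groups the 3 probes varied with little relation to each other. Over all 24 arrays Pearson's r was 0.97 between Prl2c3 and Prl2c4, 0.93 between Prl2c3 and Prl2c5 and 0.94 between Prl2c4 and Prl2c5, values that contain the differences between groups. Over deviations of each array from its group mean, r was 0.28, 0.31 and -0.12 for these pairs. The arrays share their chip and their hybridized sample, so these are descriptions. They include control arrays below background, since Prl2c3, Prl2c4 and Prl2c5 were detected on only 9, 7 and 5 of 12 controls. Whether this lowered the within-group r was not tested. The mean deviation of the 3 probes had r = 0.06 with the deviation in the number of detected probes.

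**Figure D3:**
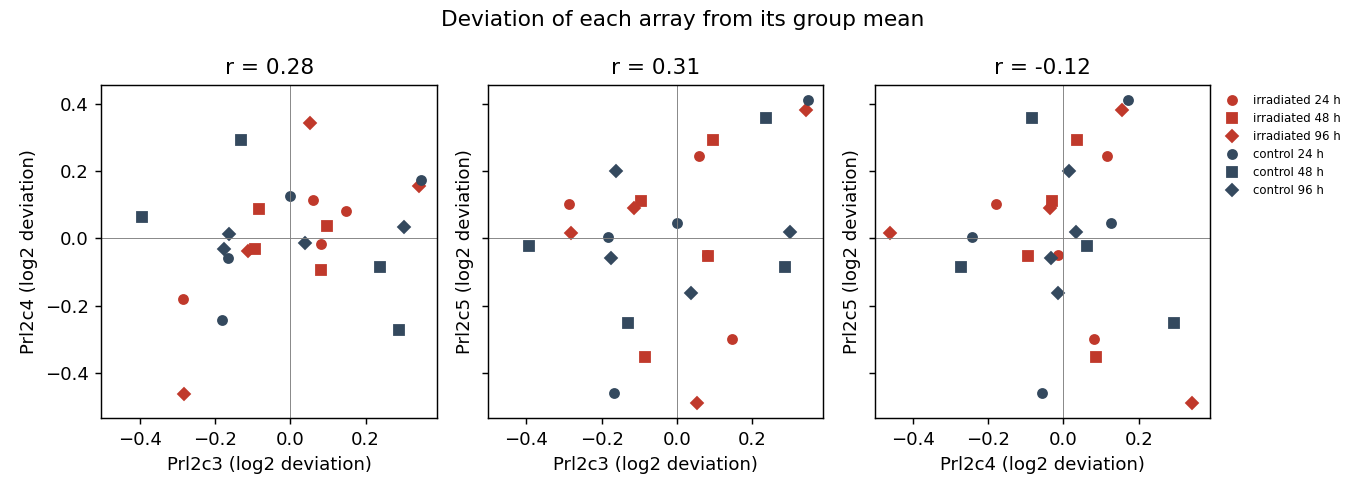
Deviation of each of the 24 arrays from its group mean (log2) for each pair of Prl2c probes, irradiated in red and controls in dark blue, with the symbol giving the time. The points form no line: r is 0.28, 0.31 and -0.12. Control arrays on which a probe was not above background are included.

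The probes whose pattern was most like the mean of the 3 Prl2c probes, after each chip was centred on its mean, were those of Serpinb9b, a serine protease inhibitor gene (r = 0.98 over 24 arrays), and Reg3b, an antimicrobial lectin gene (0.98 and 0.96 for its 2 probes). They were followed by Cyp2c29 (0.97) and Cyp3a13 (0.96), which encode cytochrome P450 enzymes. These were the highest of 13291 probes compared, clone names left out. Their r values contain the difference between irradiated and control arrays, on which the Prl2c genes were chosen. Irradiated minus control, Serpinb9b differed by 1.43, 1.74 and 1.88 log2 units at 24, 48 and 96 h, Cyp2c29 by 0.98, 1.25 and 1.19 and Cyp3a13 by 0.97, 1.37 and 0.81. Over deviations from group means the highest were Stk38 (r = 0.76), Tcea1 (0.71), Mbd6 (0.70), E2f6 (0.69) and Ssna1 (0.67), none of which is in the first group. These 5 are the top of 13291 untested values. On this measure the 3 Prl2c probes themselves correlated at only 0.28, 0.31 and -0.12.

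Other members of the prolactin family gave almost no signal. Of 26 further family genes listed, 20 had a probe, and 17 of these were not above background on any array. Prl7a1, a placental family member, was detected on 2 irradiated and 4 control arrays and was the only one tested. It differed by 0.62, 0.004 and 0.03 at 24, 48 and 96 h (limma adjusted p = 0.222, 0.997 and 0.978). Prl3d3, a placental lactogen gene, was detected on 1 irradiated and 1 control array, and Prl8a6 on 1 control array. The summed level of the 20 genes was 478 to 547 in irradiated organoids and 476 to 499 in controls at 24 h, on the linear normalized scale. It was 475 to 516 in irradiated organoids and 481 to 501 in controls at 48 h, and 491 to 509 in irradiated organoids and 473 to 540 in controls at 96 h.

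Of 13 genes for the receptors of prolactin, growth hormone and mannose 6-phosphate ligands and for JAK-STAT5 signalling, 12 were tested, each by its brightest detected probe. At 24 h 1 rose and 1 fell, at 48 h 1 rose and 1 fell, and at 96 h none rose and 1 fell. The medians were -0.11, -0.05 and -0.21, beside -0.04, -0.04 and -0.003 over all genes. Over all 10798 genes 10.9%, 6.86% and 1.56% rose at 24, 48 and 96 h and 12%, 5.73% and 3.15% fell.

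The gene that fell was Prlr, the prolactin receptor. Its brightest probe averaged 7.37 ± 0.13 log2 units in irradiated organoids and 7.95 ± 0.13 in controls at 24 h, 6.29 ± 0.27 in irradiated organoids and 7.06 ± 0.10 in controls at 48 h, and 6.49 ± 0.23 in irradiated organoids and 7.21 ± 0.26 in controls at 96 h (SD, n = 4 each). The differences were -0.58, -0.77 and -0.73 (SE 0.14 each, limma adjusted p = 0.00566, 0.000721 and 0.00307). At 96 h the fall was lost in a fit to the 96 h arrays alone (-0.73, adjusted p = 0.103), and at 24 h without the 5 arrays with the fewest detected probes (-0.48, adjusted p = 0.0628). Of the 2 dimmer probes of Prlr, 1 fell at 24 h (-0.84, adjusted p = 0.0066), and neither passed at 48 or 96 h (-0.29 to -0.50, adjusted p from 0.225 to 0.473).

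Igf2r, the receptor that binds proliferin, rose at 24 h by 0.28 on its brightest probe (SE 0.09, limma adjusted p = 0.0362), a call that was lost under 10 of 39 other settings and turned to -0.20 with median scaling. At 48 and 96 h this probe differed by 0.25 and 0.12 (adjusted p = 0.0889 and 0.585). Its other probe rose at 48 h by 0.67 (adjusted p = 0.00168) and differed by 0.34 at 24 h and 0.21 at 96 h (adjusted p = 0.0754 and 0.464). Stat3, a transcription factor of cytokine signalling, rose at 48 h by 0.36 (adjusted p = 0.0493), and the call was lost under 25 of 39 other settings. Neither of the 2 other tested probes of Stat3 had this call at 48 h. Jak2, Stat5a and Stat5b, which carry the prolactin signal, did not pass at any time.

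The AP-1 subunit genes moved in different directions. Of 12 listed 8 had a probe and 5 were tested. At 24 h 1 rose and none fell (median 0.45), at 48 h 1 rose and 1 fell (median 0.22), and at 96 h none rose and 1 fell (median -0.35). Over all genes 10.9%, 6.86% and 1.56% rose and 12%, 5.73% and 3.15% fell, with medians of -0.04, -0.04 and -0.003. Fos averaged 7.14 ± 0.18 log2 units in irradiated organoids and 6.42 ± 0.18 in controls at 24 h (difference 0.72, SE 0.20, limma adjusted p = 0.0125). It averaged 8.15 ± 0.08 in irradiated organoids and 6.87 ± 0.13 in controls at 48 h (1.28, SE 0.20, adjusted p = 0.000114). At 96 h Fos differed by -0.35 (adjusted p = 0.415). The part of AP-1 in the Prl2c signal was not tested. The 24 h rise of Fos was lost with median scaling (0.19, adjusted p = 0.514). Jun fell at 48 h by 0.72 (adjusted p = 0.0051), and Atf3, a stress-induced partner of Jun, fell at 96 h by 0.96 (adjusted p = 0.000354), where it was above background on 1 irradiated and 4 control arrays.

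Of 8 tested genes for the glucocorticoid receptor and its targets, 1 rose at 24 h, 4 rose at 48 h and 2 fell at 96 h (medians -0.06, 0.48 and -0.11). The shares over all genes were 10.9% higher at 24 h, 6.86% higher at 48 h and 3.15% lower at 96 h. The receptor gene Nr3c1 did not pass at any time (-0.50, 0.06 and -0.15; adjusted p = 0.0728, 0.903 and 0.767). Sgk1, a kinase gene, averaged 7.41 ± 0.20 log2 units in irradiated organoids and 5.85 ± 0.10 in controls at 48 h (difference 1.56, SE 0.23, adjusted p = 4.46e-05). Zfp36, which encodes an mRNA decay factor, rose by 0.47 at 24 h and 0.87 at 48 h (adjusted p = 0.00844 and 3.68e-05). Its differences were -0.01 at 24 h and 0.58 at 48 h with median scaling, and neither passed (adjusted p = 0.96 and 0.0624). The phosphatase gene Dusp1 rose by 0.70 at 48 h and fell by 1.82 at 96 h (adjusted p = 0.000854 and 2.85e-09), and its 48 h rise was lost with median scaling (0.48, adjusted p = 0.103). Fkbp5, a receptor co-chaperone gene, rose by 0.78 at 48 h (adjusted p = 0.0396), a call lost under 9 of 39 other settings. The targets Tsc22d3, Per1 and Klf9 did not pass at 48 h (-0.002, 0.05 and 0.26, limma adjusted p = 0.994, 0.942 and 0.387). Tsc22d3 was the other gene that fell at 96 h (-0.49, limma adjusted p = 0.013). That call was lost under 5 of 39 other settings, and the other probe of Tsc22d3 differed in call.

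**Figure D4:**
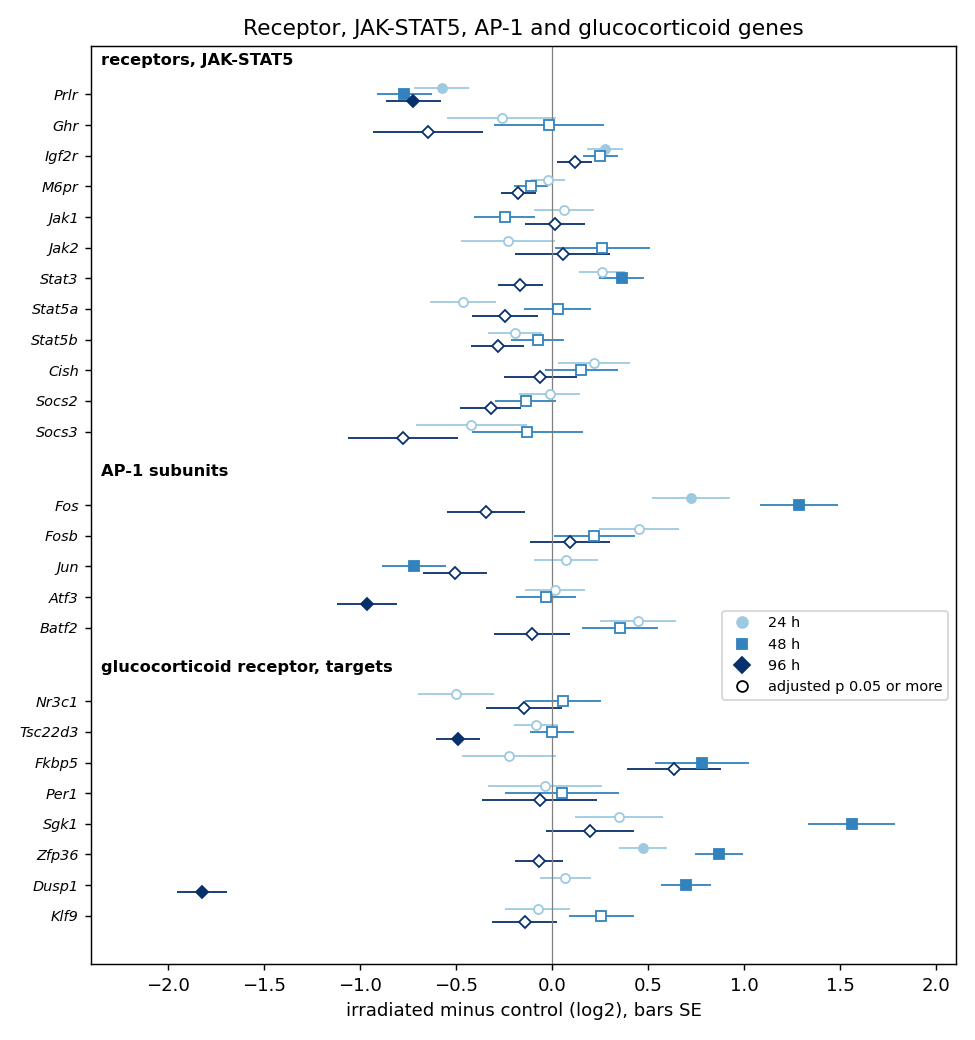
Irradiated minus control (log2, bars SE) at 24, 48 and 96 h for the tested genes of 3 lists, by the brightest detected probe; filled symbols have an adjusted p under 0.05 in limma. Prlr lies below 0 at each time, Fos and Sgk1 are highest at 48 h, and Dusp1 is lowest at 96 h.

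Markers of the cells that usually make proliferins were mostly below detection. Of 23 trophoblast markers with a probe 19 were not above background on any array, including Gcm1, Tpbpa and Hand1, and only the pregnancy glycoprotein gene Psg23 was tested, with no call (0.16, 0.13 and -0.05). The summed level of the trophoblast list was 1557 to 1606 in irradiated organoids and 1330 to 1544 in controls at 24 h, 1330 to 1627 in irradiated organoids and 1314 to 1403 in controls at 48 h, and 1395 to 1531 in irradiated organoids and 1410 to 1652 in controls at 96 h. Most of this sum came from Psg23, which averaged 9.97 log2 units in irradiated organoids and 9.82 in controls at 24 h. Of 13 fibroblast markers 9 were not above background on any array, including Col1a1, Col3a1 and Pdgfra. Of the 4 tested, 2 rose at 24 h, 2 rose at 48 h and none passed at 96 h. The shares over all genes were 10.9%, 6.86% and 1.56% higher at 24, 48 and 96 h. Fbln1, which encodes an extracellular matrix protein, rose at 24 h by 0.48 (limma adjusted p = 0.00214) and was detected on all 24 arrays. With median scaling it differed by 0.11 (adjusted p = 0.632). Vim and Acta2 rose at 48 h, by 0.87 and 0.88 (limma adjusted p = 0.00408 and 0.0288, the call of Acta2 being lost under 6 of 39 other settings), and at 96 h they differed by -0.07 and 0.27 (adjusted p = 0.896 and 0.654). At 24 h Vim was called higher by 0.69 (limma adjusted p = 0.0128). It was above background there on only 1 irradiated array and no control, so its size is not well measured. That call was lost without irradiated 24 h replicate 1 (0.49, adjusted p = 0.0548). The summed level of the fibroblast list was 3604 to 4027 in irradiated organoids and 2587 to 3004 in controls at 24 h, 3072 to 4431 in irradiated organoids and 2592 to 3351 in controls at 48 h, and 3189 to 4303 in irradiated organoids and 2872 to 4222 in controls at 96 h. Most of this sum came from Fbln1 and Acta2. They averaged 11.15 and 10.27 log2 units in irradiated organoids and 10.67 and 9.78 in controls at 24 h. The part of trophoblast or fibroblast cells in the Prl2c signal was not tested. In bulk samples, more cells of a type and more RNA per cell cannot be told apart. Of 8 endothelial markers 5 were not above background on any array and 3 were tested, of which Tek was called higher at 24 h (0.92, limma adjusted p = 0.0247). It was above background on only 2 irradiated and 1 control array there, and the call was lost under 8 of 38 other settings. Of 7 immune markers 5 were not above background on any array, and neither of the 2 tested passed. All 12 epithelial markers with a probe, among them Vil1, Cdh1 and Krt8, were detected on all 24 arrays. At 24 h 5 rose and 2 fell, at 48 h 3 rose and 1 fell, and at 96 h 1 rose and 1 fell. Over all genes 10.9%, 6.86% and 1.56% rose and 12%, 5.73% and 3.15% fell at these times. Like the Prl2c probes, the differentiation keratin gene Krt20 was higher in irradiated organoids at each time, by 1.36, 1.23 and 0.74 (limma adjusted p = 1.5e-09, 9.65e-09 and 2.34e-05). The stem cell marker Lgr5 differed at each time, by -1.47, -0.87 and -0.50 (adjusted p = 2.54e-08, 6.97e-05 and 0.028). The 96 h call of Krt20 was lost with median scaling, and that of Lgr5 under 8 of 39 other settings. Chga, an enteroendocrine marker, rose by 0.97 at 24 h and 1.36 at 48 h (adjusted p = 0.032 and 0.0061), and its 24 h call was lost under 7 of 39 other settings. Fabp2, an enterocyte fatty acid binding protein gene, rose by 0.90 at 24 h and 0.60 at 48 h (adjusted p = 0.000985 and 0.0341), and these calls were lost under 1 and 6 of 39 other settings. Vil1 and Lyz1 rose and Cdx1 fell at 24 h (0.45, 0.37 and -0.60), the other probe of Cdx1 differing in call. With median scaling Vil1 and Lyz1 differed by 0.01 and 0.07 and no longer passed (adjusted p = 0.958 and 0.764). The summed level of the epithelial list was 24687 to 27560 in irradiated organoids and 20348 to 23331 in controls at 24 h, 31494 to 33518 in irradiated organoids and 24046 to 28020 in controls at 48 h, and 26093 to 27253 in irradiated organoids and 21821 to 25889 in controls at 96 h. The part of a shift among epithelial cell types in the Prl2c signal was not tested.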

How the data were processed

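RNA of 24 organoid samples was hybridized to Illumina BeadChips. The authors deposited average signals of each probe as linear intensity, per the file headers, which from the values are not normalized and keep their background. The same deposited table holds a detection p-value per probe and array, per the file headers. The authors also deposited processed intensity values, which from the values share 1 distribution over arrays and keep the background. The software behind them is not stated by the headers or labels.

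Signals went through neqc of limma 3.58.1 in R 4.3.3 (normexp from the detection p-values, offset 16, quantile normalization, log2), with version 1.17.8 of data.table. The filter (detection p under 0.05, at least 4 arrays) left 15056 of 25697 probes. The model had 6 group means and moderated variances and was tested two-sided, with Benjamini-Hochberg adjustment over all probes and calls at an adjusted p under 0.05. Lists used the brightest detected probe of each of 10798 symbols. The fit was tested on simulated data. Arrays of a group correlated at 0.954 to 0.994. The members and lists were chosen with earlier results of these data known. The named genes are the members, the 5 most alike probes by each measure, and called list genes with the largest effects, at most 4 a list. Jak2, Stat5a, Stat5b, Nr3c1, Tsc22d3, Per1, Klf9 and marker names were added after their values were seen. Alternatives were other background corrections, scalings, filters, variance models and fits, and leaving out arrays; leaving out the 5 arrays with the fewest detected probes was added after seeing the data. Exact permutation tests used scipy 1.17.1, alignments Biopython 1.88 and figures matplotlib 3.10.9. The number of arrays limits precision, the median SE of an effect being 0.174 (log2).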

Additional observations from a re-analysis of the deposited data

How the results depend on the processing

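The rise of all 3 Prl2c probes kept its direction at 24, 48 and 96 h under every alternative tried, but its size followed the background and scaling. The mean over the 3 probes was 0.91, 1.19 and 0.86 at 24, 48 and 96 h with no background correction, 0.92, 1.20 and 0.86 with the authors' deposited processed values, and 1.14, 1.51 and 1.06 with an offset of 50. It was 1.02 at 24 h with median scaling, and 2.42 and 2.36 at 48 h with cyclic loess and with quantile normalization within each chip. Without each array in turn it ran from 1.44 to 1.62, from 2.12 to 2.22 and from 1.64 to 1.82. Median scaling shifted the median of all probes to -0.44, -0.18 and -0.19. Relative to it the Prl2c mean was 1.46, 2.46 and 1.81, against 1.59, 2.20 and 1.74 relative to the median under quantile normalization.

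Calls of differences between times appeared for Prl2c3 from 48 to 96 h with no background correction (-0.59), an offset of 50 (-0.72), within-chip normalization (-0.99) and the authors' values (-0.60). Without each array in turn this difference ran from -0.87 to -0.63. Calls appeared from 24 to 48 h for Prl2c5 with median scaling (1.37) and for Prl2c4 with within-chip normalization (0.89). The uncalled 24 to 96 h difference changed sign for Prl2c4 with an offset of 50 (-0.0275) and for Prl2c3 with median scaling (0.23). The effects of Igf2r and Zfp36 at 24 h turned to -0.20 and -0.0139 with median scaling.

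Probes called higher were 1447, 945 and 218 at 24, 48 and 96 h. They were 555, 502 and 77 with median scaling (7.58%, 33.4% and 11.3% of calls were higher, against 43.3%, 55.6% and 34.1%), and 66.5% of calls at 24 h were higher with cyclic loess. The 96 h count was 55 in a fit to the 96 h arrays alone, 111 with array weights, which gave 1483 at 48 h, and 99 without the 5 arrays with the fewest detected probes. Without each array in turn it ran from 143 (without irradiated 96 h replicate 3) to 333 (without control 96 h replicate 2). The cause of these changes was not tested. Replicate numbers are shared by irradiated and control samples, and same-numbered samples correlated at -0.42 to 0.46 in their deviations. Samples with different numbers were not compared, so this does not settle whether the numbers pair samples. With a replicate block the counts were 1433, 890 and 155, and the Prl2c effects were unchanged by construction. No Dixon outlier was found among the 18 groups of 4 member values.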
